A study of Mus musculus with 8 samples.

Results

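The genes described here handle lipids: they activate fatty acids, oxidise them in mitochondria and peroxisomes, lengthen and desaturate them, carry lipids in blood and across membranes, cut and rebuild phospholipids, and make or coat triglyceride droplets. Members were all named genes whose symbol starts with one of 20 family stems (Acsl, Acss, Acad, Acox, Cpt1, Cpt2, Elovl, Fads, Hmgc, Apoa, Apob, Apoc, Apoe, Abca, Abcg, Lpcat, Plin, Pla2g, Dgat and Agpat). This gave 60 genes of 8741 named on the array, measured by 89 probes, from 19 of the stems. No named gene starts with Abcg. Apobec2 and Apobr came in by their first letters alone: Apobec2 belongs to a family of deaminase genes and Apobr is a receptor for apolipoprotein B particles.

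The study measured lung RNA of male mice transgenic for fra-2 (Fosl-2 gene). Fra-2 belongs to the AP-1 transcription factors. All animals were C57BL6 x CBA, and the 4 transgenic mice had an age of 14 weeks. Each was hybridised on a pair of two-colour arrays with the dyes exchanged. The other channel held 1 pool made from the lungs of 4 wild type males, also C57BL6 x CBA and 14 weeks old, which gives 8 arrays and 1 control sample. The promoter that drives the transgene is not given in the sources used here, and no probe named here checks the transgene. Values are log2 ratios, transgenic over pool. Only the channel order in the labels gives this direction, so it is likely and not certain. Were it opposite, each higher would read lower and each lower higher. The arrays gave 20585 to 20729 usable ratios each, with medians between -0.09 and 0.01, and their number limits the precision. A log2 ratio gives no level, so levels are not compared between genes, and in whole lung fewer cells of a type and less RNA per cell cannot be told apart.

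Fatty acids enter oxidation as acyl-CoA, made by acyl-CoA synthetases. Carnitine palmitoyltransferases bring long chains into mitochondria, where acyl-CoA dehydrogenases take the first oxidising step of each round, and acyl-CoA oxidases take that step in peroxisomes. In lung, type 2 epithelial cells make the phosphatidylcholine of surfactant, which phospholipid transporters load into lamellar bodies, and alveolar macrophages take used surfactant up and store or export its lipid.

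Of the 60 genes, 7 were higher and 13 lower at an adjusted p under 0.05, here named called (limma on the means of 4 mice, Benjamini-Hochberg over the 8692 named genes tested). These 20 were 33.3% of the genes, beside 31.9% of all named genes tested, 13.5% higher and 18.4% lower. The share of the lipid genes was near that of all genes, so the list as a whole does not stand apart by its number of calls. The median log2 ratio was -0.01, and -0.01 over all named genes. All 20 called genes had the same sign in 4 of 4 mice, and 19 of them on 8 of 8 arrays. The calls were made on these same values and favour such agreement, so it is no separate support. Called with a log2 mean of at least 0.5 in size were 9 of the 60 (15%, beside 11.5% of all named genes). None of the 60 reached 1 on the mean of its probes. Without mouse 3 the count of called genes was 14, and without mouse 4 it was 18. Here and below, the share of all named genes called under such an alternative is not given. Such counts therefore show no dependence particular to the lipid genes. Leaving out Apobec2 and Apobr gave 19 of 58 genes.

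**Figure D1:**
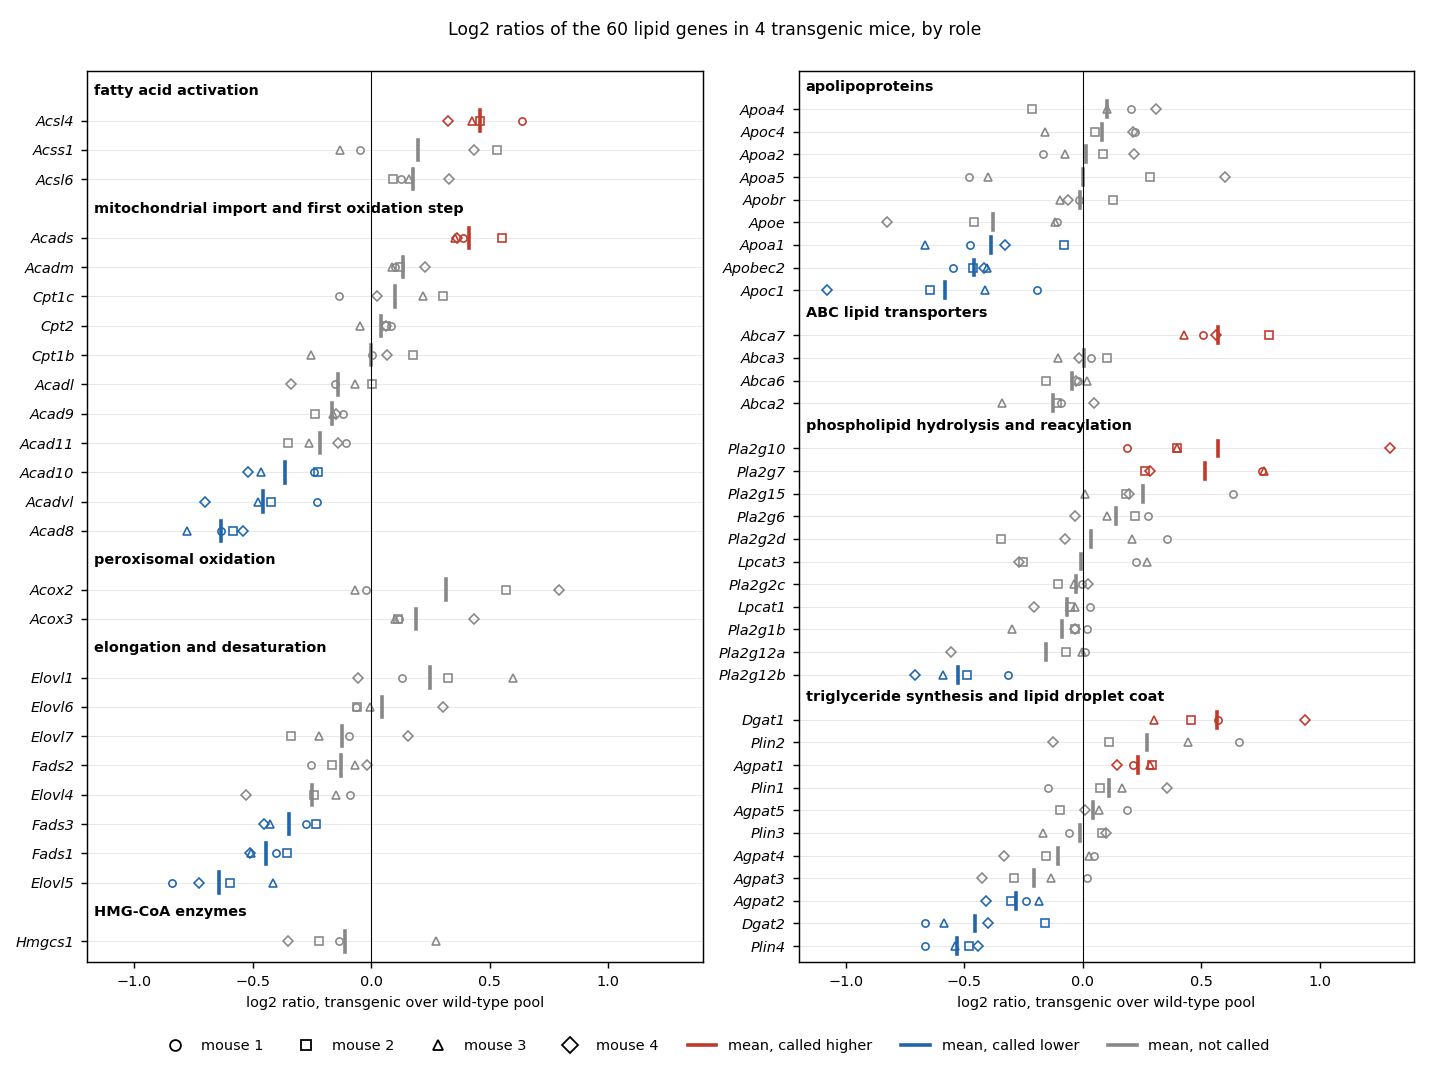
The log2 ratio of transgenic over pool (x axis) is plotted for each of the 60 genes (rows, by role) in mice 1 to 4 (symbols), with the mean as a bar coloured by its call. Called genes run from Elovl5 at -0.64 to Abca7 at 0.57, and in Apoa5, Acox2 and Acss1 the mice lie on both sides of 0.

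Among the genes that activate fatty acids, Acsl4 rose and Acsl6 and Acss1 did not pass. Acsl4, the acyl-CoA synthetase that prefers arachidonic acid, had log2 ratios of 0.64, 0.46, 0.43 and 0.32 in mice 1 to 4. All 4 lay above 0, and the mean was 1.38-fold higher (0.46 ± 0.13, SD, n = 4 mice, adjusted p = 0.00638). Acsl6, a synthetase known from brain, had a mean of 0.18 ± 0.11 over 2 probes. Acss1, the mitochondrial acetyl-CoA synthetase, was at -0.05, 0.53, -0.13 and 0.43 in mice 1 to 4, so mice 1 and 3 lay below 0 and mice 2 and 4 above it.

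The mitochondrial genes moved both ways. Of 11 genes, 3 fell and 1 rose (36.4%, beside 31.9% of all named genes), all of them acyl-CoA dehydrogenases. Acad8, the dehydrogenase of valine breakdown, had the lowest mean of the 11, with -0.63, -0.58, -0.78 and -0.54 in mice 1 to 4. These values do not overlap 0 and gave a fall of 1.55-fold (-0.63 ± 0.10, adjusted p = 0.00206). Acadvl, the enzyme of very long chains at the inner mitochondrial membrane, fell with -0.23, -0.42, -0.48 and -0.70 in mice 1 to 4. Its mean was -0.46 ± 0.19 (adjusted p = 0.0106), with mouse 4 lowest and mouse 1 nearest 0. Acad10 fell, with a mean of -0.36 ± 0.15 (adjusted p = 0.0165), a call that was lost without mouse 3 (adjusted p = 0.0622) and on the arrays with transgenic RNA in Cy3 alone (adjusted p = 0.109).

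Acads, the enzyme of short chains, went the other way. Its ratios were 0.39, 0.55, 0.35 and 0.36 in mice 1 to 4, all above 0 and highest in mouse 2, with a mean of 0.41 ± 0.09 (adjusted p = 0.00723). On the Cy3 arrays alone its adjusted p was 0.0639. The enzymes of medium chains, Acadm (0.13 ± 0.06, adjusted p = 0.179), and of long chains, Acadl (-0.14 ± 0.15, adjusted p = 0.228), did not pass. So the very long chain gene fell, the short chain gene rose, and the genes of the lengths between were not called. Acad9, which also serves assembly of complex I, was at -0.17 and Acad11 at -0.21, both below 0 on 8 of 8 arrays without passing. The mean of Acad11 joins a probe at 0.02 with one called lower (-0.45, adjusted p = 0.0083).

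No carnitine palmitoyltransferase gene passed. Cpt1b, the muscle form of the enzyme on the outer membrane, had a mean of -0.003 with a 95% interval from -0.21 to 0.21. Cpt2, the inner membrane enzyme, was at 0.04 (interval -0.13 to 0.20), and Cpt1c, the brain form, at 0.10 (interval -0.12 to 0.32). The Cpt1c interval reaches above the called rise of Agpat1 (0.23), so a rise of that size in Cpt1c is not shown to be absent. The peroxisomal oxidase genes Acox3, of branched chains (0.19 ± 0.16, 3 probes), and Acox2, of bile acid intermediates (0.32 ± 0.43), did not pass either. Acox2 was at -0.02 and -0.07 in mice 1 and 3 and at 0.57 and 0.79 in mice 2 and 4.

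Genes of elongation and desaturation had 3 lower and none higher of 8 (37.5%, beside 31.9% of all named genes). Elovl5, the elongase of polyunsaturated chains, had the lowest mean of all 60 genes. Its ratios were -0.84, -0.60, -0.41 and -0.73 in mice 1 to 4, a fall of 1.56-fold (-0.64 ± 0.18, adjusted p = 0.00328), and all 8 arrays were below 0. Fads1, the delta-5 desaturase that makes arachidonic acid, fell with -0.40, -0.35, -0.51 and -0.51 in mice 1 to 4 (-0.44 ± 0.08, adjusted p = 0.00527). Its 3 probes gave -0.32, -0.48 and -0.53, all below 0, and 2 of them were called. Fads3 fell by 0.35 ± 0.11 (adjusted p = 0.014), but from probes at -0.03 and -0.66, and its call was lost without mouse 3 (adjusted p = 0.0558) and on the Cy5 arrays alone (adjusted p = 0.0505).

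Fads2, the delta-6 desaturase of the same pathway as Fads1, had a mean of -0.13 ± 0.10 (adjusted p = 0.232). Its probes disagreed: one was called lower (-0.47, adjusted p = 0.0135) and the other had a mean of 0.22. Elovl4, of very long chains, was at -0.25 (adjusted p = 0.0752). Elovl6, which lengthens palmitate, was at 0.04 over 4 probes that ranged from -0.35 to 0.32. Elovl1, of saturated very long chains, had the highest mean of the group, 0.25 ± 0.28, and did not pass.

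One gene of the HMG-CoA enzymes was named, Hmgcs1, the cytosolic synthase ahead of the rate-limiting step of sterol synthesis. Its ratios were -0.14, -0.22, 0.27 and -0.35 in mice 1 to 4, on both sides of 0 (-0.11 ± 0.27, adjusted p = 0.471).

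Of 9 genes with apolipoprotein stems, 3 were lower and none higher (33.3%, beside 31.9% of all named genes). Apoc1, a small apolipoprotein that macrophages also make, had -0.19, -0.65, -0.41 and -1.08 in mice 1 to 4. The gene fell, with a mean of -0.58 ± 0.38 (adjusted p = 0.019). Mouse 4 was lowest by far, and without mouse 2 the adjusted p was 0.0667. Apoe, its neighbour in the same gene cluster and a carrier of lipid out of macrophages, was ordered in the same way, with -0.11, -0.46, -0.12 and -0.83. It did not pass (-0.38 ± 0.34, adjusted p = 0.0607), with a 95% interval from -0.68 to -0.08.

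Apoa1, the main protein of high density lipoprotein, fell to a mean of -0.39 ± 0.25 (adjusted p = 0.0284), from -0.08 in mouse 2 to -0.67 in mouse 3. Leaving out mouse 1, 3 or 4 ended its call (adjusted p from 0.068 to 0.0996), as did the Cy3 arrays alone (adjusted p = 0.0686). Apobec2 fell by 0.46 ± 0.06 (adjusted p = 0.00457) as the mean of probes at -0.89 and -0.03. The means of Apoa2, Apoa4, Apoa5, Apoc4 and Apobr lay between -0.01 and 0.10, and none passed. Apoa5 was at -0.48 and -0.40 in mice 1 and 3 and at 0.28 and 0.60 in mice 2 and 4, so its mean of 0.001 stands for none of the mice.

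Of 4 ABC transporter genes 1 rose (25%, beside 31.9% of all named genes). Abca7, which exports phospholipid and takes part in phagocytosis, had the highest mean of all 60 genes. It was at 0.51, 0.79, 0.43 and 0.56 in mice 1 to 4, all above 0, which is 1.49-fold higher (0.57 ± 0.15, adjusted p = 0.00393). The name Abca7 is among the least certain here, as its 1 probe lies in the weakest block of the naming check described below. Abca3, the transporter that loads surfactant phospholipid into lamellar bodies, was at 0.03, 0.10, -0.11 and -0.02. Its mean was 0.003 with a 95% interval from -0.17 to 0.18. Abca2 (-0.12) and Abca6 (-0.05) did not pass.

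Phospholipase A2 genes split. Of 11 genes of phospholipid hydrolysis and reacylation, 2 rose and 1 fell (27.3%, beside 31.9% of all named genes). Pla2g10, a secreted phospholipase, was at 0.19, 0.40, 0.40 and 1.299 in mice 1 to 4. The mean was 1.48-fold higher (0.57 ± 0.50, adjusted p = 0.0424), with mouse 4 far above the others. Without mouse 4 the mean was 0.33, still called (adjusted p = 0.0389). The call ended without mouse 2 or 3 (adjusted p 0.082 and 0.0653), when the Cy3 arrays were fitted by themselves (adjusted p = 0.0687) and with placeholder values kept (adjusted p = 0.07).

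Pla2g7, the platelet-activating factor acetylhydrolase that macrophages secrete, was at 0.76, 0.26, 0.76 and 0.29 in mice 1 to 4, a mean of 0.52 ± 0.28 (adjusted p = 0.0139). Mice 1 and 3 were alike and above mice 2 and 4. Without mouse 1 the adjusted p was 0.058. Its 3 probes gave 1.17 ± 0.77, 0.17 ± 0.15 and 0.21 ± 0.01, and the first alone was called. Pla2g12b, a member without catalytic activity, fell with -0.32, -0.49, -0.59 and -0.71 (-0.53 ± 0.17, adjusted p = 0.0053), and on the Cy3 arrays alone had an adjusted p of 0.0549.

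The reacylating enzymes did not pass. Lpcat1, the acyltransferase of surfactant phosphatidylcholine, had a mean of -0.07 (95% interval -0.24 to 0.11) from probes at 0.20 and -0.34. Lpcat3 was at 0.23 and 0.27 in mice 1 and 3 and at -0.25 and -0.27 in mice 2 and 4. The lysosomal phospholipase gene Pla2g15, known from alveolar macrophages, was at 0.26 ± 0.27 and did not pass (adjusted p = 0.113).

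Genes of triglyceride synthesis and droplet coats had 2 higher and 3 lower of 11 (45.45%, beside 31.9% of all named genes). The enzymes of the last step of triglyceride synthesis differed in sign. Dgat1 was at 0.57, 0.45, 0.30 and 0.94 in mice 1 to 4, all above 0 (0.57 ± 0.27, 1.48-fold higher, adjusted p = 0.00955). Dgat2 was at -0.67, -0.16, -0.59 and -0.40, all below 0 (-0.45 ± 0.23, 1.37-fold lower, adjusted p = 0.0138). The opposite calls were made on these values, so their lack of overlap adds nothing to the calls. The mean of Dgat2 joins a probe at -1.12 ± 0.40 with one at 0.21 ± 0.11. That second probe was at 0.09, 0.31, 0.29 and 0.16 in mice 1 to 4, the same sign as Dgat1. The Dgat2 call was lost without mouse 1 (adjusted p = 0.0604) and on the Cy3 arrays alone (adjusted p = 0.0804).

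The acyltransferases of phosphatidic acid synthesis also went both ways. Agpat1 rose by 0.23 ± 0.07 (adjusted p = 0.043), with 7 of 8 arrays above 0. Agpat2, the form known from fat tissue, fell by 0.28 ± 0.10 (adjusted p = 0.0258). Agpat1 was not called without mouse 1, 2 or 3 (adjusted p from 0.125 to 0.145), with the mouse as a random block (adjusted p = 0.0676) or when the Cy3 arrays were fitted by themselves (0.14, adjusted p = 0.418). Agpat2 was not called without any 1 of the 4 mice (adjusted p from 0.053 to 0.0893), and was at -0.10 on the Cy5 arrays (adjusted p = 0.283) and -0.46 on the Cy3 arrays.

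Of the perilipins, Plin4, an adipocyte droplet coat, fell with -0.66, -0.48, -0.54 and -0.44 in mice 1 to 4 (-0.53 ± 0.10, 1.45-fold lower, adjusted p = 0.00336). On the Cy3 arrays alone its adjusted p was 0.0603. Plin1, the main adipocyte perilipin, was at -0.15, 0.07, 0.16 and 0.36 and did not pass (0.11 ± 0.21, adjusted p = 0.402). Plin2, the coat of droplets in macrophages and other cells, was the one gene with probes called in opposite directions. One probe was at 1.44, 0.59, 1.25 and 0.56 in mice 1 to 4 (0.96 ± 0.45, adjusted p = 0.00694), and the other at -0.12, -0.37, -0.36 and -0.81 (-0.42 ± 0.29, adjusted p = 0.0401). The mean over both, 0.27 ± 0.35, did not pass, and which probe reports Plin2 was not tested.

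Disagreement between probes was common. Of 21 genes here with more than 1 tested probe, 11 had probe means of both signs (52.4%), beside 47.5% of all 2588 such genes on the array. At the level of single probes, 8 of 88 tested were called higher and 18 lower, beside 11.1% and 14.6% of all probes. The count of 26 was 15 without mouse 1, 16 without mouse 2 and 17 without mouse 3. Genes resting on a called and an uncalled probe were Abca6, Acad11, Agpat1, Apobec2, Dgat2, Fads2, Fads3 and Pla2g7, and for these the mean over probes is smaller in size than the called probe. Fads1 is the one gene with several probes called in 1 direction.

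**Figure D2:**
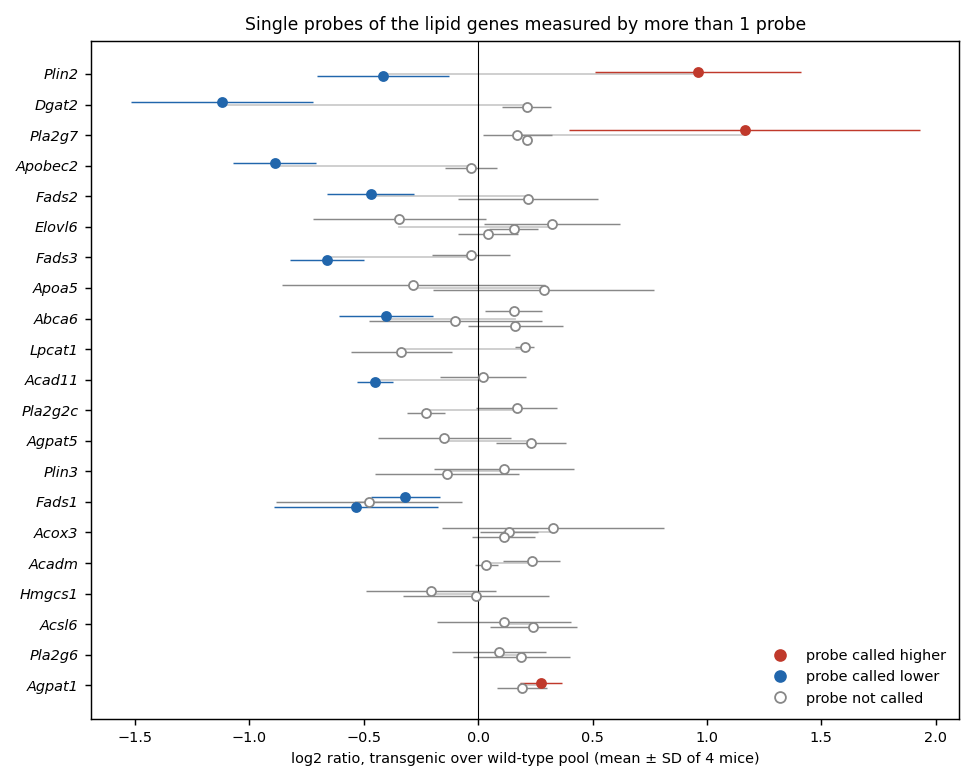
Each row is a lipid gene with more than 1 tested probe, and each point is the mean log2 ratio of 1 probe over 4 mice with its SD (x axis), coloured by its call and filled if called. Rows are ordered by the distance between probes, from Plin2 (0.96 and -0.42) to Agpat1 (0.27 and 0.19).

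The values of the mice lay apart in several of these genes, but no gene passed the test between mice. When limma compared the 4 mice over 8 arrays, with a term for the dye, 0 of 60 had an adjusted p under 0.05, beside 2.78% of all named genes. At an unadjusted p under 0.05 there were 15 of 60 (25%), beside 20.6% of all named genes, and without the dye term 8 of 60 with again 0 after adjustment. The smallest adjusted p was that of Plin2 (0.0633), followed by Apoe (0.0718), Apoc1 (0.0854) and Acox2 (0.0964). In Plin2, mouse 1 was highest (0.66) and mouse 4 lowest (-0.13).

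The dye orientation gave no called effect: 0 of 60 passed the limma test of the Cy5 array minus the Cy3 array of the same mouse, as did 0% of all named genes. At an unadjusted p under 0.05 there were 22 of 60 (36.7%), beside 26.7% of all named genes. In 6 genes the orientations differed by over 0.5: Abca2, Apoa2, Apoa5, Elovl1, Elovl7 and Pla2g1b, none of them called. Elovl1 had a mean of 0.64 on the Cy5 arrays and -0.14 on the Cy3 arrays, named by the dye of the transgenic RNA. Elovl7 had -0.56 and 0.31, and Pla2g1b had -0.50 and 0.33. All 20 called genes had the same sign in both orientations, which calls made on these same arrays favour. Tested on the Cy3 arrays alone 14 of the 60 genes were called, and on the Cy5 arrays alone 25.

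**Figure D3:**
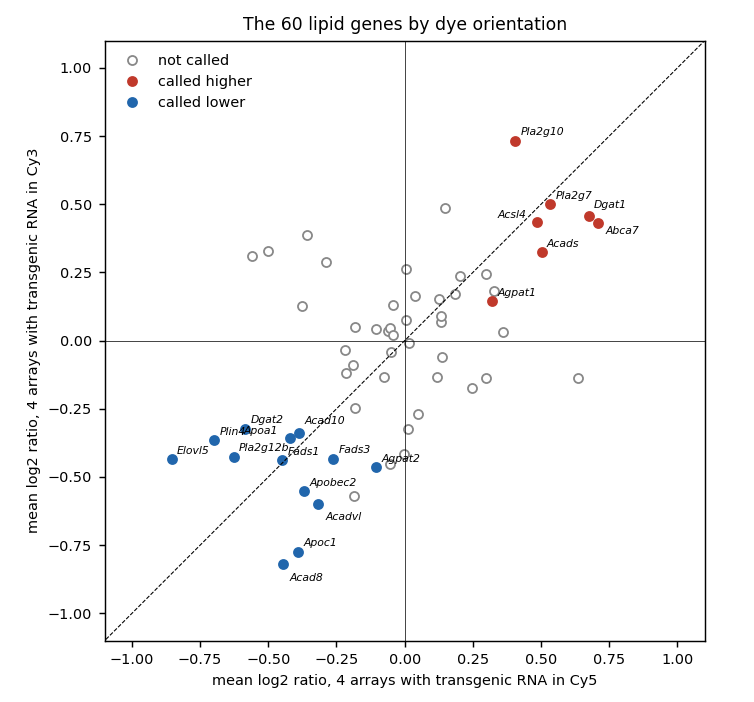
The mean log2 ratio of each of the 60 genes over the 4 arrays with transgenic RNA in Cy5 (x axis) is set against that over the 4 arrays with it in Cy3 (y axis), and the dashed line marks equal values. The called genes lie at the lower left and upper right, and the genes far off the line, such as Elovl1 at 0.64 and -0.14, are not called.

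Since Fra-2 is part of AP-1, whose known binding letters are TGANTCA, the promoters of the genes were searched for these letters on both strands. RefSeq promoter entries (GRCm38.p6, 250 bases before to 50 after the start) matched 52 of the 60 genes with 61 promoters, and 16 of the 20 called genes. The letters were found in 6 of 61 promoters (9.84%), of 5 genes, beside 7.81% of all 32851 promoters. They are shown with 8 bases on each side, on the strand of the gene, with the match in capitals, to show what such a match looks like in the only called gene that has one and in the 4 others.
Acadvl (chr11:70015398-70015420, minus strand, in the bases after the start): gtggagcaTGAGTCAgggcccag
Acox2 (chr14:8259016-8259038, minus strand, before 2 annotated starts): ctggaagcTGAGTCAtgccagag
Acox2 (chr14:8258806-8258828, minus strand, after the start further from the first match): gacagaggTGAGTCAagagttta
Acsl6 (chr11:54303799-54303821, plus strand): ggggcgtcTGACTCAgccaggaa
Agpat4 (chr17:12119136-12119158, plus strand): ggagagggTGACTCAtgttacac
Apobr (chr7:126584804-126584826, plus strand): cccgagtcTGAGTCAcctggaca
Acadvl fell, and the other 4 genes were not called. A match is a description of these letters, not a binding site.

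The core letters of the sterol element, TCACNCCAC, were found on either strand in 3 of 61 promoters (4.92%), beside 1.24% of all promoters. They are shown because Hmgcs1 is a textbook gene of sterol control and Abca3 serves surfactant.
Hmgcs1 (chr13:119690206-119690230, plus strand): tcaccgtcTCACCCCACttcccagg
Abca3 (chr17:24351790-24351814, plus strand): acgcacgcTCACCCCACcctacaag
Pla2g12a (chr3:129881098-129881122, plus strand, match on the opposite strand): gttggaagGTGGGGTGAttctgcag
None of these 3 genes was called. Direct repeats of AGGTCA with 1 or 4 bases between them, known for PPAR and LXR receptors, were found in 0 of 61 promoters, and in 0.0396% and 0.0152% of all promoters.

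Other genes of the same pathways, in 8 lists without the 60, had 12 higher and 30 lower of 122 measured (34.4%, beside 31.9% of all named genes). Without mouse 1 the count of 42 was 24, and without mouse 2 it was 26. By list, the called share ran from 18.18% (sterol synthesis and uptake) to 54.55% (phosphatidylcholine and surfactant). Values below are of the largest called genes of each list.

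Further enzymes and carriers of beta-oxidation had 6 lower and none higher of 21 (28.57%, beside 31.9% of all named genes), with a median of -0.17. Etfdh, which passes electrons from all acyl-CoA dehydrogenases to the respiratory chain, was at -0.71, -0.76, -0.48 and -1.18 in mice 1 to 4 (-0.78 ± 0.29, adjusted p = 0.004). Pccb, of propionyl-CoA carboxylase, fell by 0.47 ± 0.11 and the carnitine transporter gene Slc22a5 by 0.39 ± 0.15. Pecr, a peroxisomal reductase, fell by 0.38 ± 0.28, a call that ended on leaving out mouse 2, 3 or 4 (adjusted p from 0.058 to 0.115), on the Cy5 arrays alone (adjusted p = 0.0701) or with placeholder values kept (adjusted p = 0.0581). Among regulators, 2 of 18 were higher and 5 lower (38.89%, beside 31.9% of all named genes). Angptl4, a PPAR target that inhibits lipoprotein lipase, was at -0.47, -0.71, -0.78 and -1.29 (-0.81 ± 0.34, adjusted p = 0.00499). Prkab1, a subunit of AMP-activated kinase, fell by 0.61 ± 0.32, while the fatty acid receptor gene Ppard rose by 0.52 ± 0.26. Ppargc1b, a coactivator gene, rose by 0.43 ± 0.31, with 0.11 on the Cy5 arrays (adjusted p = 0.337), 0.74 on the Cy3 arrays and 0.27 without mouse 4. It was not called without mouse 1, 2 or 3 (adjusted p from 0.0546 to 0.0709) or with placeholder values kept (adjusted p = 0.0531).

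Fatty acid synthesis had 2 higher and 3 lower of 11 (45.45%, beside 31.9% of all named genes). Thrsp, a gene that accompanies lipogenesis, fell by 1.97 ± 0.29. Acly, which makes cytosolic acetyl-CoA, was at -0.98, -1.34, -0.69 and -1.43 in mice 1 to 4 (-1.11 ± 0.34, adjusted p = 0.0019). The stearoyl-CoA desaturase gene Scd2 fell by 0.77 ± 0.17, and Me1, which makes NADPH, rose by 0.60 ± 0.15 (adjusted p = 0.0032). Of 11 genes of sterol synthesis and uptake, 2 rose and none fell (18.18%, beside 31.9% of all named genes). Mvd, of the mevalonate pathway, was at 0.94, 0.59, 0.85 and 0.49 (0.72 ± 0.21, adjusted p = 0.003). Dhcr7, of the last step to cholesterol, rose by 0.54 ± 0.32, a call that ended without mouse 1 or mouse 3 (adjusted p 0.064 and 0.0504).

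Uptake, binding and lysosomal release had 2 higher and 3 lower of 22 (22.73%, beside 31.9% of all named genes). Both Fabp4 (-1.16 ± 0.58) and Fabp1 (-0.89 ± 0.23), which encode binding proteins of fatty acids, fell, as did lipoprotein lipase, Lpl, with -0.45, -1.18, -0.73 and -0.48 in mice 1 to 4 (-0.71 ± 0.33, adjusted p = 0.00727). The transporter gene Slc27a1 rose by 0.32 ± 0.13, a call that ended on leaving out mouse 1, 3 or 4 (adjusted p from 0.0539 to 0.101) or taking the Cy3 arrays alone (adjusted p = 0.127). Triglyceride synthesis and lipolysis had 1 higher and 5 lower of 18 (33.33%, beside 31.9% of all named genes). The droplet gene Cidec fell by 1.55 ± 0.57 and G0s2, an inhibitor of triglyceride lipase, by 0.92 ± 0.12. The phosphatidic acid phosphatase gene Lpin1 fell by 0.44 ± 0.19 (adjusted p = 0.0532 with Cy3 arrays alone), and Pnpla2, the triglyceride lipase, by 0.34 ± 0.23. The call of Pnpla2 did not hold without mouse 2, 3 or 4 (adjusted p from 0.0677 to 0.123), on the Cy5 or Cy3 arrays alone (adjusted p 0.0712 and 0.0567) or with placeholder values kept (adjusted p = 0.0537).

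Phosphatidylcholine and surfactant genes had 1 higher and 5 lower of 11 (54.55%, beside 31.9% of all named genes). Chpt1, the last enzyme of phosphatidylcholine synthesis, was at -1.05, -0.66, -0.93 and -0.73 in mice 1 to 4 (-0.84 ± 0.18, adjusted p = 0.00144). Lpgat1 fell by 0.46 ± 0.10. Mboat7 fell by 0.41 ± 0.25, a call that ended on leaving out mouse 1, 2 or 4 (adjusted p from 0.0509 to 0.0889) or taking the Cy5 or Cy3 arrays alone (adjusted p 0.0545 and 0.0512). The surfactant protein B gene Sftpb rose by 0.37 ± 0.19, a call that ended on leaving out mouse 1 or 2 (adjusted p = 0.0907 and 0.0871) or taking the Cy3 arrays alone (adjusted p = 0.152). Eicosanoid enzymes had 2 higher and 3 lower of 10 (50%, beside 31.9% of all named genes). Tbxas1, thromboxane synthase, was at 0.79, 0.37, 0.71 and 0.54 (0.60 ± 0.19, adjusted p = 0.00405), as the mean of 2 probes. The first probe of Tbxas1 alone was at 1.43, which puts the second at a negative ratio. Ptgis, prostacyclin synthase, fell by 0.43 ± 0.28, a call that ended on leaving out mouse 2 or 4 (adjusted p = 0.09 and 0.0625) and on the Cy5 arrays alone (adjusted p = 0.0506). Lta4h, leukotriene A4 hydrolase, fell by 0.41 ± 0.31, a call that ended on leaving out mouse 2, 3 or 4 (adjusted p from 0.0787 to 0.103), on the Cy5 arrays alone (-0.25, adjusted p = 0.0913) or with placeholder values kept (adjusted p = 0.058). Ephx2, an epoxide hydrolase gene, fell by 0.44 ± 0.27 as the mean of 2 probes, but its first probe alone was at 0.08 (adjusted p = 0.624). Without mouse 1, 2 or 4 it was not called (adjusted p from 0.06 to 0.0867), nor when the Cy3 arrays were fitted by themselves (adjusted p = 0.0741).

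**Figure D4:**
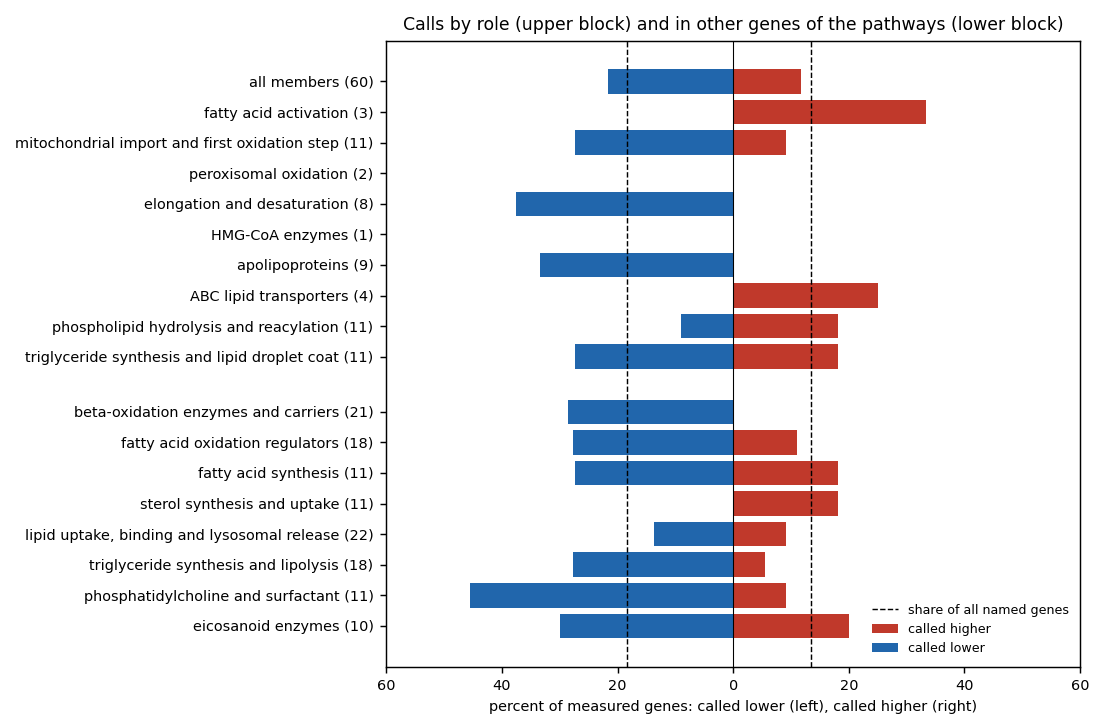
Bars give the percent of measured genes called lower (left) and higher (right) in each role of the 60 genes and in each list of other pathway genes, with the number measured in brackets and dashed lines at the share of all named genes (18.4% lower, 13.5% higher). Several roles hold under 5 genes, and their shares rest on at most 1 called gene.

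**Figure D5:**
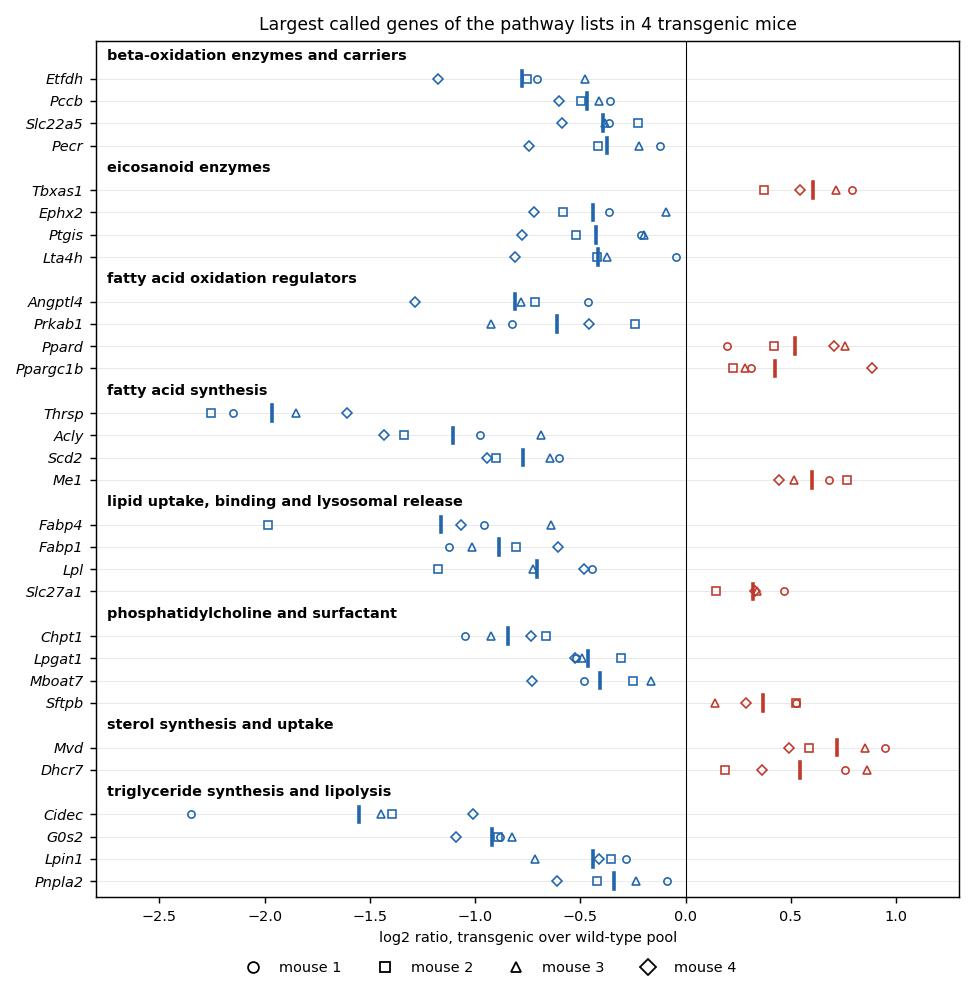
The log2 ratio (x axis) of the largest called genes of each pathway list, up to 4 per list, is plotted in mice 1 to 4 (symbols) with the mean as a bar, red for higher and blue for lower. Thrsp, Cidec, Fabp4 and Acly lie furthest below 0, and Mvd, Tbxas1 and Me1 lie furthest above it.

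Markers of several cell types moved beside these genes, and their part in the results was not tested. As ratios, they give no summed level. Their counts stand beside 13.5% of all named genes called higher and 18.4% called lower. Adipose markers other than Plin1 and Plin4 were lower in 7 and higher in 0 of 10, with medians in the 4 mice between -1.26 and -0.76, beside the falls of Plin4, Dgat2 and Agpat2 and beside Plin1 at 0.11. Of the pathway genes above, Thrsp, Cidec, Fabp4 and Pnpla2 also stand in that marker list. Heart and skeletal muscle markers were lower in 18 and higher in 0 of 19, with medians between -0.73 and -0.39, beside the falls of Acadvl, Apobec2 and Etfdh and beside Cpt1b at -0.003. Macrophage markers were higher in 8 and lower in 1 of 11, with medians of 1.68, 0.78, 1.395 and 0.88 in mice 1 to 4. Beside them, Pla2g7 and 1 probe of Plin2 were called higher, while Apoc1 (-0.58) and the other Plin2 probe (-0.42) were called lower. Apoe (-0.38) and Pla2g15 (0.26) did not pass. In the macrophage list the medians of mice 1 and 3 were above those of mice 2 and 4. The exception in direction was Marco, which alveolar macrophages use to bind particles and which fell by 2.54 ± 0.28. Type 2 epithelium markers other than Abca3 and Lpcat1 were higher in 2 and lower in 0 of 5, type 1 markers lower in 5 and higher in 0 of 7, and club cell markers lower in 5 and higher in 1 of 9. By mouse, the median of the club cell list was -1.27, -0.03, -1.47 and -0.26, lower in mice 1 and 3. Apoa5, Acox2 and Acss1 were also lower in mice 1 and 3, while Lpcat3, Plin2 and Pla2g2d were higher in them. These genes were picked with their values known, and none of them passed the test between mice. Hepatocyte markers, listed because liver is the main source of apolipoproteins, were higher in 2 and lower in 1 of 11.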

How the data were processed

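Each sample is 1 two-colour array of lung RNA, labelled with Cy3 or Cy5 after reverse transcription, per the labels' protocols. Per probe, the authors deposited a log2 ratio. Their software, background correction and normalization: not given in the sources used here. No source states the log base, which was inferred from the values. As deposited, 706 values were missing, and a further 498 beyond 10 in size were set to missing. Array medians were near 0, so no centring was applied. Spot intensities and signal over background are unknown here. Dye-swapped arrays of a mouse correlated at 0.389 to 0.685 over probes, so no array was turned.

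Gene names come from a platform annotation, with the probe number plus 11 as the row of the value table. At this offset, probes of 1 gene correlated at 0.224 (Spearman, 4802 pairs, mean ratios), against 0.013 at equal numbers and at most 0.054 at 200 other offsets, 100 each way. In 18 of 20 blocks of 1000 numbers no other of 121 offsets gave a higher value. In 1 of the other 2 blocks, 13 offsets gave a higher value than this offset (0.067), and probes of Abca7, Agpat2, Elovl6 and Lpcat3 lie there. In the last block 1 offset was higher than this offset (0.187), and probes of Apoe, Elovl6 and Pla2g2c lie there. A weak correlation leaves single names open to error. All 12296 probe identifiers matched RefSeq (GRCm38.p6), with 0 symbols changed, and 475 annotated probes of high number stay unnamed.

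The 2 arrays of a mouse were averaged, then probes of a gene, for 20621 probes with a value in each mouse. The test asked, with limma (version 3.58.1, R 4.3.3), whether the 4 mouse means differ from 0 (lmFit, eBayes, two-sided, Benjamini-Hochberg, adjusted p under 0.05). This leaves out the spread of the control, as the pool is 1 sample. The fits were tested on simulated data. Summaries were made in Python 3.11.15 (matplotlib 3.10.9, scipy 1.17.1, pandas 2.3.3, numpy 2.4.6). The genes, lists and motifs were chosen with earlier results of these data known. Named genes were every called gene of the 60, the highest and lowest of each role, those with probes called in opposite directions or differing by mouse or dye, and up to 4 called genes of each pathway list by size. Other genes of the 60 complete a family, picked with their values known. Alternatives were array centring and scaling, single dye orientations, leaving out each mouse, the mouse as a block, probe choices, robust variance, placeholders kept and symbols as given. Near-identical gene copies can cross-hybridise.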

Additional observations from a re-analysis of the deposited data

Results flagged for a closer look

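Among the 60 genes and 30 named pathway genes, 8 had 1 mouse that stood apart from the other 3 by more than Dixon's 95% critical value for 4 samples, which chance exceeds in about 1 of 20 groups. In mouse 4, Acox3 was at 0.43, Elovl6 at 0.30, Pla2g12a at -0.56 and Ppargc1b at 0.89. In mouse 2, Acads was at 0.55 and Lpgat1 at -0.31. In mouse 3, Cpt2 was at -0.0495 and Pla2g1b at -0.30.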

How the results depend on the processing

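Of the 20 called genes, 8 kept direction and call under all 14 alternatives: Abca7, Acad8, Acadvl, Acsl4, Apobec2, Dgat1, Elovl5 and Fads1. Symbols as given changed 0 symbols and could not alter a call, nor could the first probe in a gene with 1 probe. For Apobec2 the first probe is called (-0.89), and the second (-0.03) was not used alone. None of the 14 changed the naming, and of these 8 genes Abca7 lies in the weakest naming block. Leaving out 1 mouse gave 14 to 18 called genes, 5 to 7 higher and 9 to 11 lower. It gave 15 to 19 called probes, 24 to 38 called pathway genes, and a median of the 60 between -0.048 and -0.019. Without the share of all named genes beside them, these counts show nothing particular to the lipid genes. On the Cy3 arrays alone, 4 genes were higher in place of 7. On the Cy5 arrays alone the median was -0.047. Values that changed sign were those of Hmgcs1 on the Cy5 arrays (0.049), of Abca2 (0.13) and Elovl1 (-0.14) on the Cy3 arrays, of Ephx2 on its first probe (0.079) and of Apoa4 with placeholders kept (-1.91). In the Ephx2 setting the first probe stands in place of the mean of both. In the Apoa4 setting a probe untested in the main fit enters the mean with its placeholder values. The cause of the other sign changes was not tested. Elovl1 (0.64, adjusted p = 0.00891) and Abca2 (-0.38, adjusted p = 0.041) were called on the Cy5 arrays alone. Chosen after seeing the data, leaving out genes with a probe in the weakest naming blocks gave 18 called, 6 higher and 12 lower. With the mouse as a random block and a dye term, 21 were called, without Agpat1. One pool and unknown signal over background limit all values.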
